A study of Saccharomyces cerevisiae S288C with 6 samples.

Results

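Catalases, superoxide dismutases and cytochrome c peroxidase are among the enzymes with which budding yeast removes superoxide and hydrogen peroxide, and the chaperone Ccs1 supplies one of them with copper. The set holds 6 genes, CTT1, CTA1, SOD1, SOD2, CCS1 and CCP1, found by gene name among the 7126 rows of the deposited table. Expression was measured with 3' tag libraries of polyadenylated RNA in Saccharomyces cerevisiae S288C. There were 3 libraries of strain EDS615, labelled ltv1∆/ltv1∆, a homozygous deletion of LTV1, and 3 of strain EDS76, labelled wildtype and control. Both strains were grown overnight in YPD, a rich glucose medium, at 30 °C and harvested in mid-exponential phase at an OD600 between 0.5 and 0.6. Ltv1 is an assembly factor of the 40S ribosomal subunit, and the comparison asks what its loss does to gene expression. The labels say neither how the deletion was made nor how many clones it stands for. Nor do they state that the replicates came from separate cultures, and p-values cover only the spread between these samples, which may be technical.

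Superoxide, formed mainly where electrons leak from the respiratory chain, is converted to hydrogen peroxide and oxygen by superoxide dismutases. Sod1, the copper and zinc enzyme, works mainly in the cytosol and needs Ccs1 to receive its copper. Sod2, the manganese enzyme, works in the mitochondrial matrix. Catalases split hydrogen peroxide into water and oxygen. Ctt1 is the cytosolic catalase, known as a target of the stress factors Msn2 and Msn4, and Cta1 is the peroxisomal one, known to be induced when cells grow on fatty acids. Ccp1 reduces hydrogen peroxide with electrons from cytochrome c in the mitochondrial intermembrane space.

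The upstream stretches below hold matches to the short motifs of Msn2 and Msn4 and of Yap1, which are not the only factors known for these genes. They are shown because in 4 of the 6 genes the groups did not overlap and the libraries labelled ltv1 deletion lay lower. The same held in 20% of the tested rows. Each stretch runs 5′ to 3′ on the strand of its gene in RefSeq build R64. Capitals mark matches to AGGGG, the core of the stress response element bound by Msn2 and Msn4, and to TTACTAA, a site of the peroxide-responsive factor Yap1, on either strand. The complements read CCCCT and TTAGTAA on the strand printed.
CTT1, chrVII:654244-654517, plus strand: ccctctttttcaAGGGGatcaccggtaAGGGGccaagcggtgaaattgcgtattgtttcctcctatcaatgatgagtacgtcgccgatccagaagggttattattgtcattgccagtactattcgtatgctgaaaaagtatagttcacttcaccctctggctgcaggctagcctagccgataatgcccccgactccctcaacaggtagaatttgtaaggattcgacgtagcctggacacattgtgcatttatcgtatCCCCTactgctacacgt
CTA1, chrIV:969939-969969, minus strand: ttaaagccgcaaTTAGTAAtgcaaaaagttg
SOD1, chrX:623145-623223, minus strand: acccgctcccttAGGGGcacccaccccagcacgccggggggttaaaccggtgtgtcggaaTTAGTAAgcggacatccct
SOD2, chrVIII:123715-123868, minus strand: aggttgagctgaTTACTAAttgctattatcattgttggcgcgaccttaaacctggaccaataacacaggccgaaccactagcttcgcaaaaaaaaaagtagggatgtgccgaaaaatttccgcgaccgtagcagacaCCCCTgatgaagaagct
CCS1, chrXIII:348411-348441, minus strand: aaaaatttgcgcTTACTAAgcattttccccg
CCP1, chrXI:567330-567358, minus strand: ctcttggcatccAGGGGccggcccaagcc

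CTT1 carried 3 stress response elements in the 500 bases before its annotated coding start, beginning at positions -378, -363 and -133. SOD1, SOD2 and CCP1 carried 1 each. The element was present upstream of 34.0% of 6019 protein-coding genes. Yap1 sites lay upstream of CTA1 at position -277, SOD1 at -149, SOD2 at -266 and CCS1 at -169, against 11.8% of all genes. SOD1 and SOD2 thus held both motifs, CTT1 and CCP1 the stress element, and CTA1 and CCS1 the Yap1 site. No match overlapped another in these 6 windows. The site of the heme-responsive factor Hap1 (CGG, then TANCGG after 3 free bases) and the oleate response element of Oaf1 and Pip2 (CGG, TNA and CCG with 3 and 6 free bases between) matched upstream of none of the 6, and upstream of 0.349% and 0.216% of all genes. CCAAT, the core site of the Hap2/3/4/5 complex, was found upstream of all but CCS1, and upstream of 62.4% of all genes. The windows of CTA1 and CCS1 run into the next gene, which ends 309 and 383 bases away. With windows of 250 bases the Yap1 site was left in SOD1 and CCS1. A match is a description of the sequence and does not show binding.

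**Figure D1:**
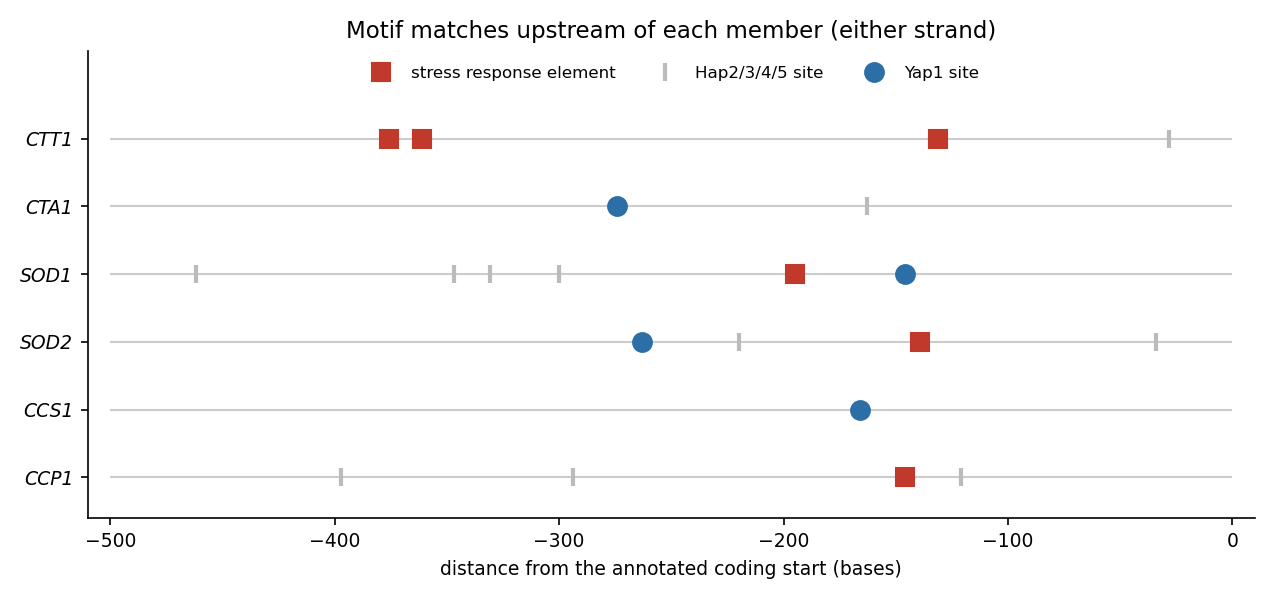
Motif matches on either strand, by distance in bases from the annotated coding start, for each of the 6 genes. CTT1 holds 3 stress response elements, and SOD1 and SOD2 hold both a stress response element and a Yap1 site.

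The reads of LTV1 (YKL143W) went against the labels. Normalized to library size, they numbered 680, 3.22 and 6.40 in ltv1 deletion 1, 2 and 3 as labelled, and 29.2, 191 and 8.77 in wild type 1, 2 and 3 as labelled (exact two-sided permutation p = 1, smallest possible 0.1). The most LTV1 reads lay in a library labelled deletion, and wild type 3 was nearly as low as ltv1 deletion 2 and 3. The extent of the deletion was not stated, and tags from outside it would check nothing. All directions below follow the labels. Each library held between 1002573 and 1248710 reads, recovered from values that the authors had divided by a size factor per library. The glycolytic gene TDH3 took 1.33% to 2.16% of the reads of the libraries labelled ltv1 deletion, and 5.66%, 2.02% and 2.88% of those labelled wild type 1, 2 and 3. The first principal component of the tested rows (59.1% of the variance) separated the labels. Its scores were 38.7, 28.5 and 35.6 in ltv1 deletion 1, 2 and 3. In wild type 1, 2 and 3 they were -59.4, -15.5 and -27.9, with wild type 1 farthest out. The second (13.9%) put ltv1 deletion 2, ltv1 deletion 3 and wild type 3 on one side (-17.1, -13.9 and -18.5). On the other side lay ltv1 deletion 1, wild type 1 and wild type 2 (25.5, 3.34 and 20.7). Whether libraries were exchanged was not tested. Of the haploid markers, the pheromone genes were near 0, with MFA1 between 0 and 2.74 and MF(ALPHA)1 between 0 and 1.94. Others were not, with STE2 at 16.4 to 30.5 and 16.6 to 34.0 and STE4 at 25.6 to 49.4 and 59.4 to 124 in the libraries labelled ltv1 deletion and wild type. The summed level of the 8 genes active in both haploid types was 46.6 to 78.5 and 89.6 to 171 in the libraries labelled ltv1 deletion and wild type, and 0 of the 4 tested were called by limma, with 1 lower at an unadjusted p under 0.05, by edgeR and by DESeq2. Their part in the results was not tested.

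CTT1, SOD2 and CCS1 fell in the libraries labelled ltv1 deletion, by 5.80-fold, 3.49-fold and 2.29-fold on the log2(value + 1) scale. SOD1 was 1.81-fold lower without passing the threshold, CCP1 lay close to even between the labels, and CTA1 was counted only 3 times in 5 of the 6 libraries. Of the 5 genes with enough reads to test, 3 passed an adjusted p of 0.05 and all 3 were lower. In the same fit 6.98% of 5663 tested rows were called lower and 8.88% higher, 15.9% in all. The share of all rows called lower was 1.24%, 1.71% and 0.302% without ltv1 deletion 1, 2 and 3, and 3.89%, 7.92% and 3.86% without wild type 1, 2 and 3. It was 0.0704% with ltv1 deletion 1 and wild type 3 both left out. For CTT1, SOD1, SOD2 and CCS1 all 3 values of the libraries labelled ltv1 deletion lay below all 3 of those labelled wild type, as they did in 20% of the tested rows. The 6 genes together took 0.414% to 0.466% of all reads in the libraries labelled ltv1 deletion, and 0.682% to 1.097% in those labelled wild type. The RNA per cell was not measured, so these are shares of the RNA sampled.

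**Figure D2:**
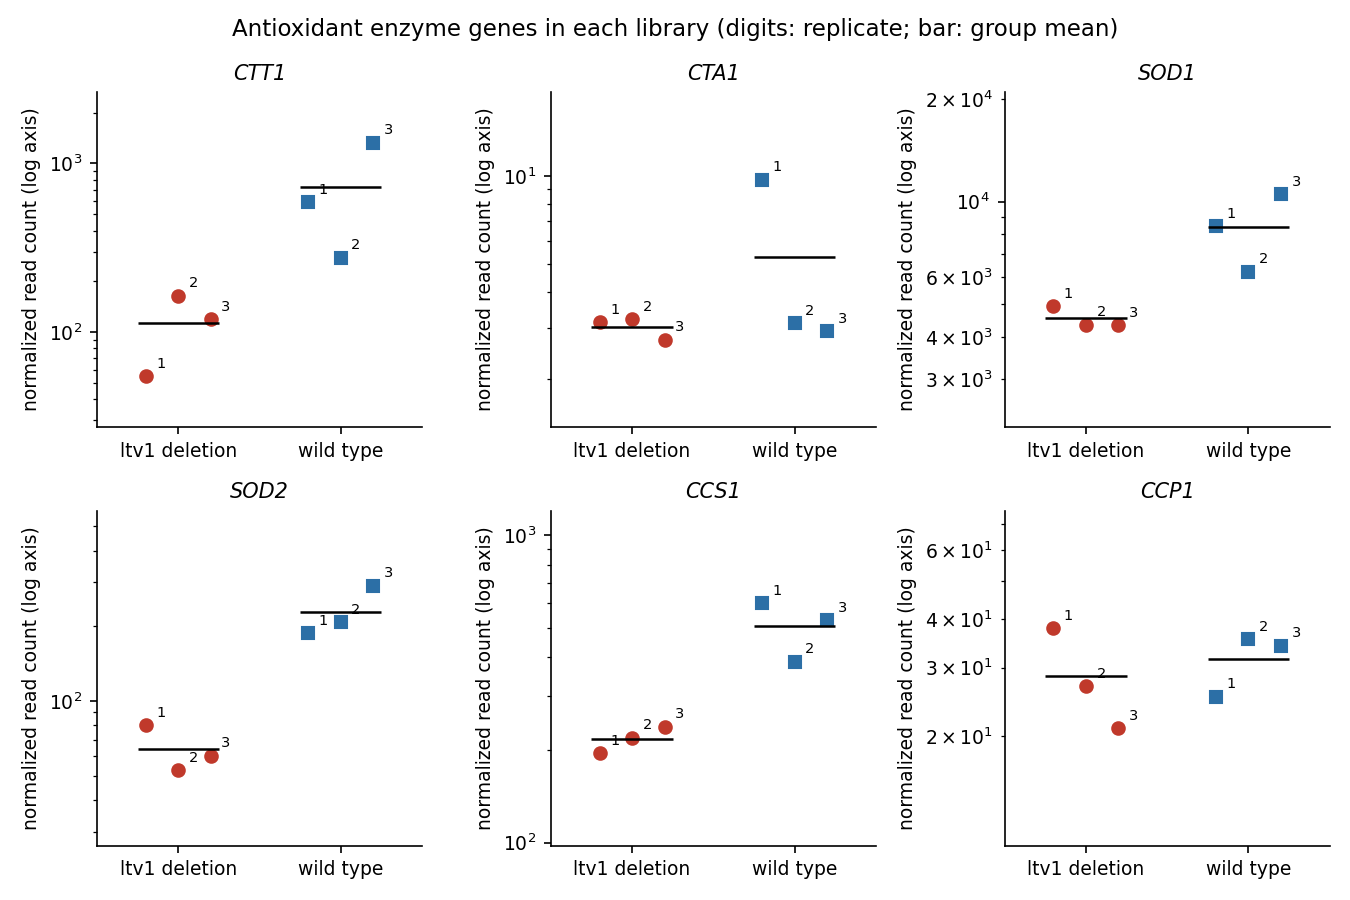
Normalized read count of each gene in each library on a log axis, with libraries labelled ltv1 deletion on the left, those labelled wild type on the right, the replicate number beside each point and a bar at the group mean. The groups do not overlap for CTT1, SOD1, SOD2 and CCS1, and overlap for CTA1 and CCP1.

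CTT1 (YGR088W, chromosome VII, 654634 to 656322, plus strand), the cytosolic catalase gene, had normalized read counts of 54.7, 164 and 120 in the libraries labelled ltv1 deletion 1, 2 and 3, and of 588, 276 and 1326 in those labelled wild type 1, 2 and 3. Wild type 3 was far above the other 2, and the highest deletion value was still below the lowest wild type value. The means were 113 ± 55.2 and 730 ± 539 (SD, n = 3 each) for libraries labelled ltv1 deletion and wild type. The coefficient of variation among the wild type libraries was 73.8%, against 3.67% from counting alone, so the spread between libraries was far larger than the counting error. The log2 fold change came to -2.53, with a standard error of 0.61, a 95% interval of -3.96 to -1.11 and an adjusted p of 0.0317 (limma). The call ended without ltv1 deletion 1, 2 or 3 (adjusted p = 0.0910, 0.0614 and 0.0824 with limma) and without wild type 1 or 3 (0.0859 and 0.0665). With ltv1 deletion 1 and wild type 3 both left out, whose LTV1 reads went against the labels, the log2 fold change was -1.52 (limma adjusted p = 0.124).

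CTA1 (YDR256C, chromosome IV, 968133 to 969680, minus strand), the peroxisomal catalase gene, was counted 3 times in each library labelled ltv1 deletion, and 10, 3 and 3 times in those labelled wild type 1, 2 and 3. Only wild type 1 stood above the floor of 3 reads. The sums were 9 reads (95% exact Poisson interval 4.12 to 17.1) and 16 reads (9.15 to 26.0) for the libraries labelled ltv1 deletion and wild type, intervals that overlap and cover counting error only. Its mean of 4.15 normalized reads missed the minimum of 5 for testing, and no difference was detectable at this depth.

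SOD2 (YHR008C, chromosome VIII, 122889 to 123590, minus strand), for the mitochondrial manganese enzyme, had the smallest adjusted p of the set. It stood at 79.9, 52.7 and 60.3 in the libraries labelled ltv1 deletion 1, 2 and 3, and at 187, 207 and 289 in those labelled wild type 1, 2 and 3. The lowest wild type value was 2.34 times the highest deletion value. The means were 64.3 ± 14.04 and 228 ± 54.4 (SD, n = 3 each), for libraries labelled ltv1 deletion and wild type. The log2 fold change came to -1.80, with a standard error of 0.27, a 95% interval of -2.43 to -1.18 and an adjusted p of 0.0128 (limma). It held without wild type 1 (limma adjusted p = 0.0161). The call ended without ltv1 deletion 3 (limma adjusted p = 0.0553), and with ltv1 deletion 1 and wild type 3 both left out, where the log2 fold change was -1.78 (adjusted p = 0.0823).

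SOD1 (YJR104C, chromosome X, 622550 to 623014, minus strand), for the copper and zinc enzyme, had normalized read counts of 4912, 4345 and 4336 in the libraries labelled ltv1 deletion 1, 2 and 3, and of 8477, 6213 and 10501 in those labelled wild type 1, 2 and 3. The deletion values lay within a coefficient of variation of 7.28% and the wild type values within 25.5%, and the groups did not overlap. With means of 4531 ± 330 and 8397 ± 2145 (SD, n = 3 each) for libraries labelled ltv1 deletion and wild type, the log2 fold change came to -0.86, with a standard error of 0.26 and a 95% interval of -1.45 to -0.26. The threshold was missed by limma (adjusted p = 0.0587) and by edgeR's quasi-likelihood test on recovered reads (adjusted p = 0.0654), and passed by DESeq2 (adjusted p = 0.00711), tests that called 9.25% and 10.1% of all rows lower. Without wild type 2 it also passed in limma (adjusted p = 0.0315). SOD1 alone took 0.374% to 0.434% of all reads in the libraries labelled ltv1 deletion, and 0.595% to 0.908% in those labelled wild type.

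CCS1 (YMR038C, chromosome XIII, 347511 to 348260, minus strand), for the chaperone that gives Sod1 its copper, stood at 196, 219 and 239 in the libraries labelled ltv1 deletion 1, 2 and 3, and at 601, 387 and 529 in those labelled wild type 1, 2 and 3. The means were 218 ± 21.5 and 506 ± 109 (SD, n = 3 each) for libraries labelled ltv1 deletion and wild type, with no overlap. The log2 fold change came to -1.19, with a standard error of 0.25, a 95% interval of -1.76 to -0.62 and an adjusted p of 0.0217 (limma). The call ended without ltv1 deletion 1, 2 or 3 and without wild type 3 (limma adjusted p = 0.0721, 0.0689, 0.0670 and 0.0552). With ltv1 deletion 1 and wild type 3 both left out the log2 fold change was -1.07 (adjusted p = 0.139).

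CCP1 (YKR066C, chromosome XI, 566113 to 567198, minus strand), for cytochrome c peroxidase, had 37.8, 26.9 and 21.0 in the libraries labelled ltv1 deletion 1, 2 and 3, and 25.3, 35.4 and 34.1 in those labelled wild type 1, 2 and 3. The groups overlapped, with means of 28.6 ± 8.54 and 31.6 ± 5.52 (SD, n = 3 each) for libraries labelled ltv1 deletion and wild type. The log2 fold change was -0.16 with a 95% interval of -0.82 to 0.49 (limma, adjusted p = 0.709). At 23 to 36 reads per library and this spread between libraries, a difference within that interval was not detectable. Without ltv1 deletion 3 the value was 0.028.

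**Figure D3:**
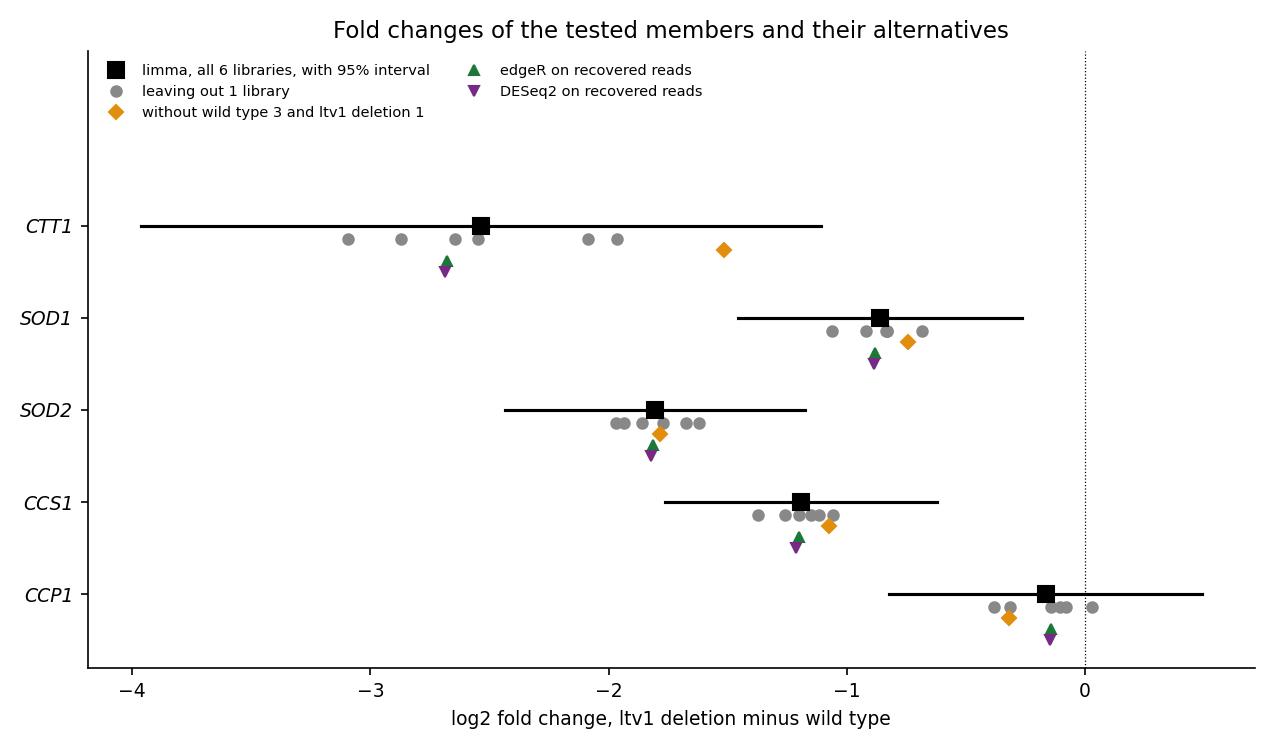
Log2 fold change of the 5 tested genes, libraries labelled ltv1 deletion minus those labelled wild type, with squares for limma on all 6 libraries and lines for 95% intervals. Other marks stand for leaving out 1 library, leaving out ltv1 deletion 1 and wild type 3 together, and the count tests edgeR and DESeq2. CTT1 moves most, between -3.09 and -1.52, and CCP1 stays around 0.

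The authors' deposited table does not state the direction of its fold changes, which was taken from their sign beside the deposited values. In the authors' deposited table, whose fit held values not analysed here, SOD2 had a log2 fold change of -1.63 with a standard error of 0.34 (authors' adjusted p = 0.0243). It was the only gene of the 6 under 0.05 in the authors' deposited table, where 0.950% of 5472 rows with an adjusted p were under 0.05 and lower. The authors' p-values may test for more than a change from 0, since 52.1% of them stood at the upper limit. They need not answer the same question as the limma p-values here. CTT1 stood at -1.86 (authors' adjusted p = 0.0798) and CCS1 at -1.10 (authors' adjusted p = 0.250) in the authors' deposited table. SOD1 at -0.67 and CCP1 at -0.07 had an adjusted p of 1 in the authors' deposited table, which gives none for CTA1. Over 17 alternatives each, adjusted p ran from 2.84e-06 to 0.124 for CTT1, from 4.17e-07 to 0.0823 for SOD2, from 0.000142 to 0.139 for CCS1, from 0.00711 to 0.215 for SOD1 and from 0.416 to 0.963 for CCP1 (limma, edgeR and DESeq2).

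Ratios between genes within a library do not depend on how libraries are scaled. The ratio of the normalized read counts of SOD1 to those of SOD2 was 61.5, 82.5 and 71.9 in the libraries labelled ltv1 deletion 1, 2 and 3, and 45.4, 30.0 and 36.3 in those labelled wild type 1, 2 and 3, a comparison of tags and not of molecules. Every deletion ratio lay above every wild type ratio. On the log2(value + 1) scale the difference SOD1 minus SOD2 was higher by 0.95 among libraries labelled ltv1 deletion (exact two-sided permutation p = 0.1, the smallest possible, and 0.133 adjusted over 4 such comparisons). On that scale CCP1 minus CTT1 differed by 2.37, libraries labelled ltv1 deletion minus those labelled wild type, with the same exact permutation p of 0.1 and adjusted p of 0.133. With ltv1 deletion 1 and wild type 3 both left out it was 1.19. CCS1 minus SOD1 differed by -0.33, with overlapping groups (exact permutation p = 0.3, adjusted 0.3), and by -0.20 without ltv1 deletion 1. CTT1 minus CTA1 is not read, since CTA1 was at the floor of 3 reads in 5 of the 6 libraries. No result of these 4 can reach 0.05 with 3 libraries a group.

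Genes that supply the metals of these enzymes were followed beside SOD1, SOD2 and CCS1. Of 13 tested genes of copper supply and buffering 0 passed the adjusted threshold in limma, edgeR or DESeq2, with 1 higher and 1 lower at an unadjusted p under 0.05 in limma, a threshold that 17.8% of all rows passed higher and 16.9% lower. Their median log2 fold change was -0.47, against -0.02 over all tested rows. Of 10 genes of manganese supply 0 passed in limma, edgeR or DESeq2, with 0 at an unadjusted p under 0.05 in limma and a median of -0.11. The smallest adjusted p of these lists belonged to FRE1, a metal reductase gene (0.95, limma adjusted p = 0.0999), and to TRE2, which takes part in degrading a metal transporter (-0.54, limma adjusted p = 0.161). A few other genes of these lists, chosen after their values were seen, stood apart in single libraries. The metallothionein gene CUP1-1, which binds excess copper, had 95.7, 226 and 170 in the libraries labelled ltv1 deletion 1, 2 and 3, and 1845, 118 and 115 in those labelled wild type 1, 2 and 3. Its near-identical copy CUP1-2 had almost the same values, so reads cannot be told apart between them. The high-affinity copper transporter gene CTR1 was at 145, 68.8 and 101 in the libraries labelled ltv1 deletion 1, 2 and 3, and at 8.75, 105 and 71.1 in those labelled wild type 1, 2 and 3. Wild type 1 thus had the highest CUP1-1 and the lowest CTR1 value of the 6 libraries. The copper transporter genes CTR2 and CTR3, at low counts, went the other way, with their highest values there (9.72 and 12.6). SOD1 and CCS1, at 8477 and 601 in that library, lay above the deletion libraries in wild type 2 and 3 as well. Without wild type 1 the log2 fold change of SOD1 was -0.84 and that of CCS1 -1.06 (limma adjusted p = 0.116 and 0.0443). Whether the copper supply of any library bears on SOD1 or CCS1 was not tested.

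MTM1, for a mitochondrial carrier needed to activate Sod2, was also chosen after its values were seen. Its normalized read counts were 38.9, 1021 and 819 in the libraries labelled ltv1 deletion 1, 2 and 3, and 64.1, 51.0 and 638 in those labelled wild type 1, 2 and 3. The high libraries were ltv1 deletion 2, ltv1 deletion 3 and wild type 3, which are also the 3 with the fewest LTV1 reads. SOD2 did not share that order, being low in all 3 libraries labelled ltv1 deletion and high in all 3 labelled wild type. The second principal component put the same 3 libraries on one side. CAT2, of the list of peroxisomal fatty acid breakdown and also chosen after its values were seen, was highest in them too. It had 7.36, 93.5 and 49.3 in ltv1 deletion 1, 2 and 3 as labelled. In wild type 1, 2 and 3 as labelled it had 27.2, 13.5 and 82.8. What sets the MTM1 and CAT2 values apart was not tested.

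**Figure D4:**
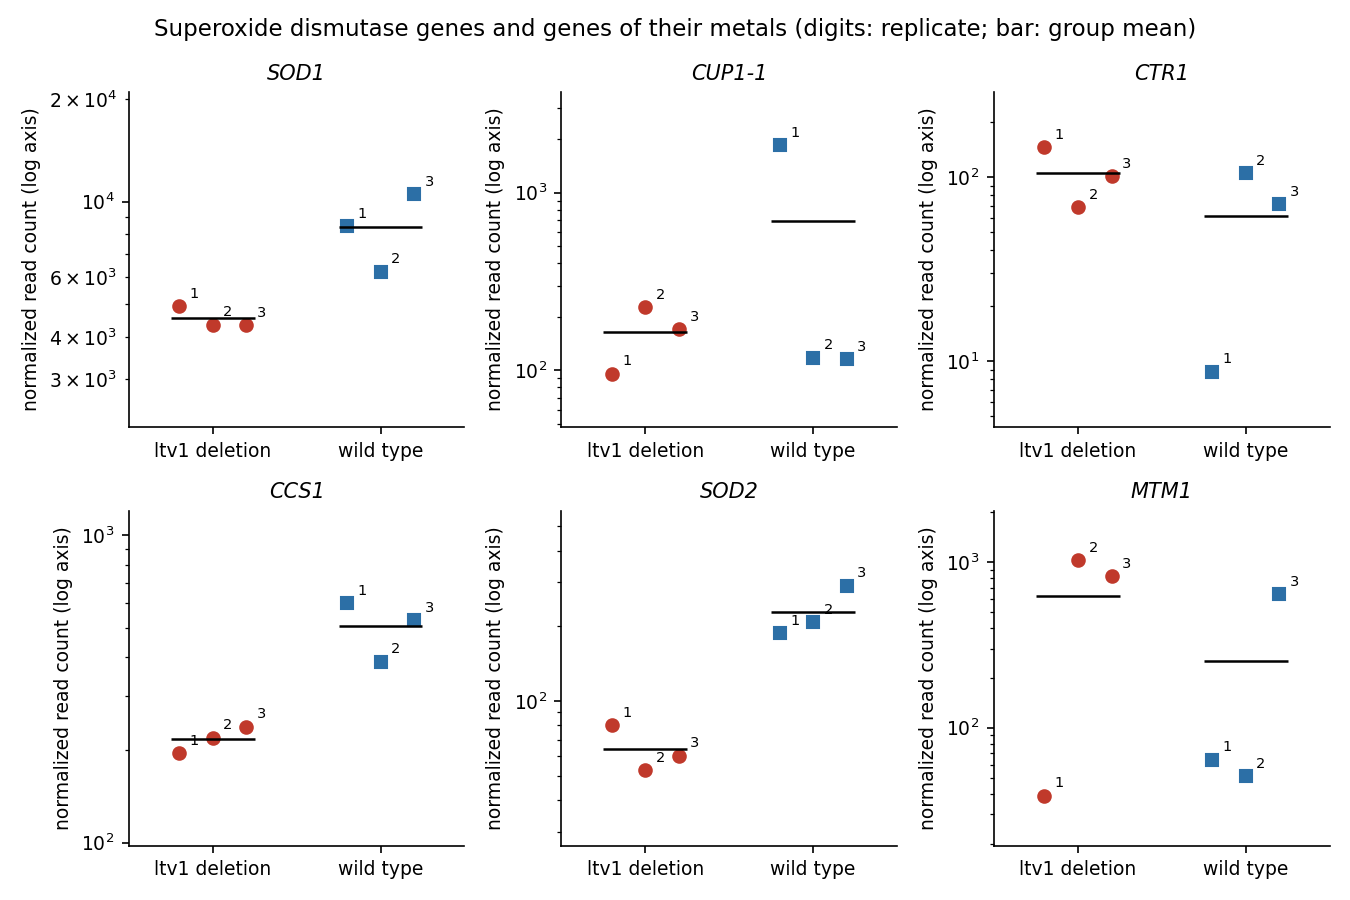
Normalized read counts on a log axis of both superoxide dismutase genes, the copper chaperone gene CCS1, the metallothionein gene CUP1-1, the copper transporter gene CTR1 and the mitochondrial carrier gene MTM1, with libraries labelled ltv1 deletion on the left, those labelled wild type on the right, the replicate number beside each point and a bar at the group mean. CUP1-1 at 1845 and CTR1 at 8.75 set wild type 1 apart, and MTM1 is high in ltv1 deletion 2, ltv1 deletion 3 and wild type 3.

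Among other enzymes that reduce peroxides, 5 of 8 tested genes fell and 0 rose, with a median log2 fold change of -1.36, beside 6.98% of all rows called lower and 8.88% higher. GPX2, for a glutathione peroxidase family member, fell by 2.48 on the log2 scale (limma adjusted p = 0.0137), to 16.8, 22.6 and 22.8 in the libraries labelled ltv1 deletion 1, 2 and 3, against 167, 65.6 and 155 in those labelled wild type 1, 2 and 3. AHP1, a cytosolic peroxiredoxin gene, and PRX1, the mitochondrial one, had log2 fold changes of -1.44 and -1.73 (limma adjusted p = 0.0227 and 0.0301). With quantile normalization AHP1 stood at -0.86 and was not called (limma adjusted p = 0.0916). The other 2 that fell were TSA1, the main cytosolic peroxiredoxin gene, at -0.999, and HYR1, whose product passes the peroxide signal to Yap1, at -1.68. Their limma adjusted p was 0.0331 and 0.0333. With no filter on low values the list counted 3 genes lower, and with the replicate block 1. In those fits 4.12% and 2.67% of all rows were lower. The list counted 1, 1 and 0 genes lower without ltv1 deletion 1, 2 and 3, and 3 and 1 without wild type 1 and 3, fits in which 1.24%, 1.71%, 0.302%, 3.89% and 3.86% of all rows were lower.

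Among 17 genes of factors that control the set 2 fell and 0 rose, with a median log2 fold change of -0.43, a count near the 6.98% of all rows called lower. The count was 0 without any 1 of the libraries labelled ltv1 deletion, and 1 without wild type 1 or 2. ADR1, an activator of peroxisomal genes and of CTA1, had a log2 fold change of -1.74 (limma adjusted p = 0.0163), with 37.8, 48.4 and 52.1 in the libraries labelled ltv1 deletion 1, 2 and 3, and 195, 179 and 105 in those labelled wild type 1, 2 and 3. MSN2, the stress factor gene, was at -1.04 (limma adjusted p = 0.0313), and it lies directly downstream of CCS1 on the same strand, 993 bases away. YAP1, MSN4 and SKN7 were chosen after their values were seen. YAP1 was at -0.15 and MSN4 at -0.44 (limma adjusted p = 0.663 and 0.342). SKN7 went the other way, at 0.77 (limma adjusted p = 0.0616). It had 15.8, 17.2 and 21.9 in ltv1 deletion 1, 2 and 3 as labelled. In wild type 1, 2 and 3 as labelled it had 8.75, 11.5 and 10.7. At an unadjusted p under 0.05 in limma, 1 gene of this list was higher and 2 were lower, beside 17.8% and 16.9% of all rows.

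Of 16 tested genes driven by Msn2 and Msn4, the factors of the stress response element, 8 fell and 0 rose, with a median log2 fold change of -1.83, beside 6.98% of all rows called lower and 8.88% higher. GPH1, for glycogen phosphorylase, the Hsp70 gene SSA4 and the glycogen synthase gene GSY2 had log2 fold changes of -2.79, -2.05 and -1.77 (limma adjusted p = 0.0126, 0.0145 and 0.0201). Relative to the mean of all 6 libraries, this list averaged -1.40, -0.69 and -0.82 on the log2 scale in the libraries labelled ltv1 deletion 1, 2 and 3, and 1.57, 0.31 and 1.03 in those labelled wild type 1, 2 and 3. CTT1 was likewise lowest in ltv1 deletion 1, but was highest in wild type 3, where the list average was highest in wild type 1. Within the list HSP12, GAD1, SOL4 and TPS1 were highest in wild type 3, as CTT1 was. More of the tested list genes were highest in wild type 1. These were HSP26, TPS2, TSL1, GSY2, GPH1, PGM2, SSA4, HSP104, ALD3, PNC1 and RTN2. XBP1 was highest in wild type 2. The list counted 1, 5 and 0 genes lower without ltv1 deletion 1, 2 and 3, and 4 and 3 without wild type 1 and 3, beside the shares of all rows given above for those fits.

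In the other lists at most 1 gene passed. Of 9 tested heme genes HEM14, for protoporphyrinogen oxidase, fell by 1.79 on the log2 scale (limma adjusted p = 0.0171), with a list median of -0.03. Heme is the cofactor of the catalases and of Ccp1. Of 13 tested genes of peroxisomal fatty acid breakdown 0 passed in limma, with 3 lower at an unadjusted p under 0.05 (16.9% of all rows), 1 by edgeR and 2 by DESeq2 (median -0.41). The nearest was PXA2, a subunit gene of the fatty acid transporter, at -0.94 (limma adjusted p = 0.0552). Of 6 genes of Ccp1 maturation and cytochrome c, CYC7, the minor cytochrome c gene, fell by 1.57 on the log2 scale (limma adjusted p = 0.0263, list median -0.17). Of 10 genes that feed electrons into the respiratory chain, CYB2, for lactate dehydrogenase, was at -2.23 (limma adjusted p = 0.0385, list median -0.47). It was not called with no filter on low values (limma adjusted p = 0.0585), and in this list edgeR and DESeq2 each called 2 lower and 1 higher. Leaving aside TSA1 and HYR1, 11 genes were named here as called in these lists. Still called were 2, 4 and 0 of the 11 without ltv1 deletion 1, 2 and 3. Without wild type 1, 2 and 3 the numbers were 7, 10 and 6. Of the 100 different genes tested over all 9 lists 18 fell and 0 rose in limma, beside 6.98% and 8.88% of all rows. Of these genes 1 was called higher without wild type 1, 2 without wild type 2, and 1 with edgeR, DESeq2, a pseudocount of 5, a mean of at least 20, quantile normalization or the limma trend. Without ltv1 deletion 1, 2 and 3 the genes lower numbered 2, 7 and 0, and without wild type 1 and 3 they numbered 9 and 7. With ltv1 deletion 1 and wild type 3 both left out limma called 0 lower and 1 higher.

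**Figure D5:**
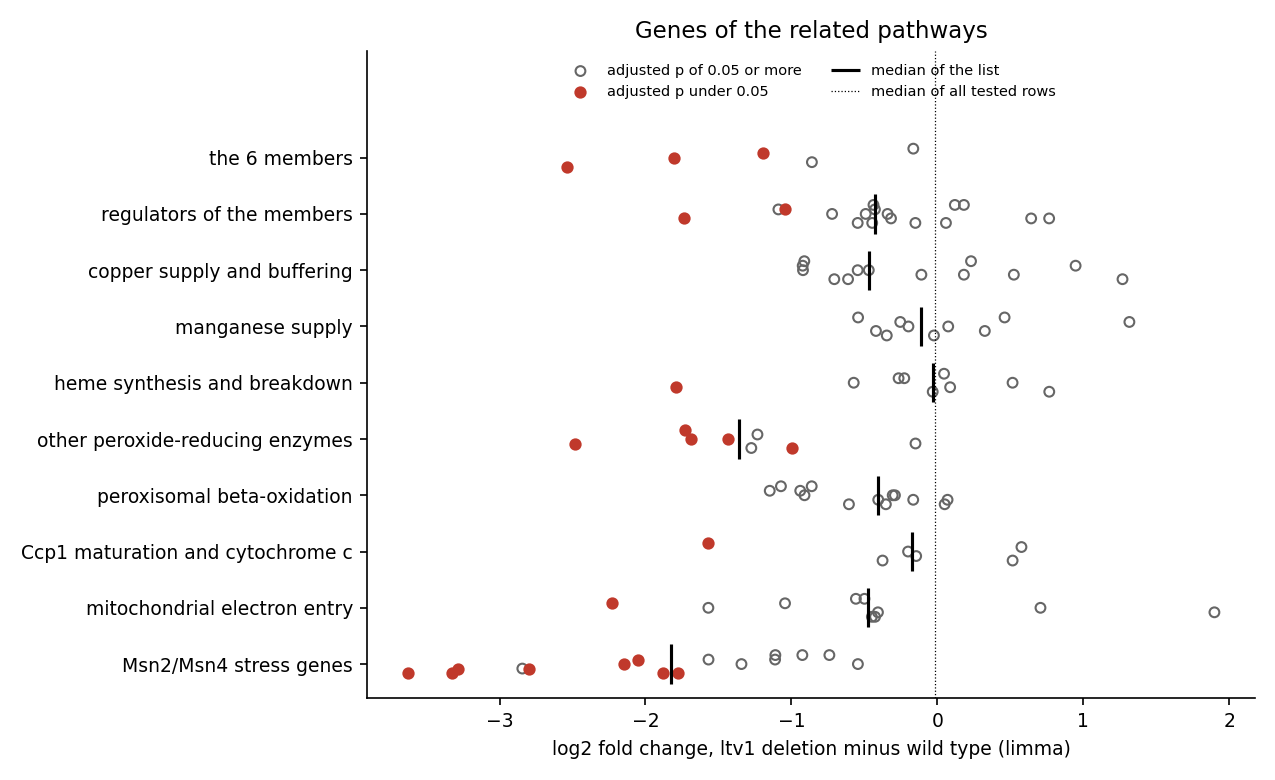
Log2 fold change (limma, libraries labelled ltv1 deletion minus those labelled wild type) of each tested gene, by list, with filled points for an adjusted p under 0.05, bars for list medians and a dotted line at the median of all tested rows, -0.02. The filled points all lie below 0, with 5 among the other peroxide-reducing enzymes and 8 among the Msn2 and Msn4 genes.

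The genes most like each member over the 6 libraries were found by the root mean square difference between log2 profiles, each centred on its own mean. Nearest to CTT1 were CYB2, GAD1, for glutamate decarboxylase, and OM45, for a mitochondrial outer membrane protein, at 0.31, 0.32 and 0.40 against a spread of 1.5 in CTT1 itself. All 3 were highest in wild type 3, as CTT1 was. Nearest to SOD2 were STF1, for a factor that stabilises the inhibited ATP synthase, at 0.15, then AHP1 at 0.21 and YLR046C at 0.26, against a spread of 0.94. Nearest to SOD1 were YRR1, for a drug-response transcription factor, at 0.10, DIN7 at 0.11 and ECM15 at 0.11, against a spread of 0.49. DIN7 lay little above the floor of 3 reads. It had 5.26 to 5.48 and 8.33 to 12.7 normalized reads in the libraries labelled ltv1 deletion and wild type. Nearest to CCS1 were HFD1, for a fatty aldehyde dehydrogenase, at 0.07, the Hsp90 co-chaperone gene CPR6 at 0.08 and YMR210W at 0.09, against a spread of 0.63. CCP1, with a spread of 0.29, was nearest to the translation factor gene TIF4632 at 0.08, to SLA1 at 0.10 and to UGO1 at 0.10. Likeness over 6 libraries is a description and carries no test.

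None of the 6 genes overlaps another annotated gene. The closest downstream neighbour in facing orientation is URA8, which ends 59 bases from SOD1 and had a log2 fold change of -0.46 (limma adjusted p = 0.216). The sources used here do not give the strand used in counting, so tags from the ends of SOD1 and URA8 could have been counted for either. CTA1 lies on the same strand between RKM4, 309 bases upstream, which rose by 1.13 (limma adjusted p = 0.0240), and RMD5, 310 bases downstream, at -0.94 (limma adjusted p = 0.0471), both as log2 fold changes.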

How the data were processed

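RNA from hot phenol extraction went into libraries of 3' tags carrying inline molecular identifiers, read from a single end, per the labels' protocols. FastQC, Trim Galore, STAR, Salmon, R 4.1.3 and DESeq2 1.34.0 are named, with build R64, per the submitters' processing notes. These do not say how molecular identifiers or strand were used. The deposited values are a normalized signal per gene, counts divided by a size factor per library. Of these values above 0, 100% lay within 0.01 of a whole multiple of the worth of 1 read (0.914 to 1.07), which gave whole reads. The authors also deposited a log2 fold change, its standard error (a score here) and p-values. In 94 rows the authors' mean was above 0 with all 6 libraries at 0, so their fit held values not analysed here.

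From the deposited values, limma 3.58.1 (R 4.3.3) was fitted to log2(value + 1) over rows with a mean of at least 5. Adjustment was Benjamini-Hochberg over all tested rows, with significance at 0.05. Differences are ltv1 deletion minus wild type, and the pseudocount understates those of low genes. On the whole reads edgeR 4.0.16 called 1121 genes and DESeq2 1.42.0 called 1207, against 898 by limma. The fit was tested on simulated data. The floor of 3 reads was worth 2.74 to 3.22 normalized reads. Poisson intervals and the floor cover counting error alone, and limma's intervals come from the spread between libraries. The genes and lists were chosen with earlier results of these data known. Named genes were the 6, LTV1, up to 3 called genes in each direction per list (otherwise the smallest adjusted p), and the 3 nearest profiles per tested gene. Upstream sequence came from the RefSeq R64 genome, with identifiers matched by locus tag (6048 of 7126). Protein sequences were not used here. Alternatives were other scalings, filters, pseudocounts, tests, the replicate block and leaving out libraries.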

Additional observations from a re-analysis of the deposited data

How the results depend on the processing

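Another pseudocount, filter, scaling or limma moderation ended no call on CTT1, SOD2 or CCS1, and neither did edgeR or DESeq2. SOD1 passed at -0.86 with a pseudocount of 5 (limma adjusted p = 0.0420), at -0.86 with a mean of at least 20 (0.0421) and at -0.89 with DESeq2. Leaving out 1 library at a time, the log2 fold changes ran from -3.09 to -1.96 (CTT1), -1.97 to -1.62 (SOD2), -1.06 to -0.68 (SOD1), -1.37 to -1.06 (CCS1), -0.38 to 0.028 (CCP1, 0.028 without ltv1 deletion 3) and -0.72 to 0.0040 (CTA1, not tested, 0.0040 without wild type 1). In the same fits 0 to 4 of the 6 genes were called lower, 37 to 981 genes were called in the whole table, 0 to 22 list genes were called lower, and the difference in LTV1 ran from -71.4 to 267 normalized reads. With ltv1 deletion 1 and wild type 3 both left out these were 0, 16, 0 and -105, and the log2 fold changes of CTT1, SOD2 and CCS1 were -1.52, -1.78 and -1.07, none of them called by limma. At an unadjusted p under 0.05, 3 of the 6 were lower in that fit, as were 12.2% of the tested rows. UGO1 ran from -0.34 to 0.058, and stood at 0.058 without ltv1 deletion 3 and 0.019 without wild type 2. With windows of 250 bases the Yap1 site was found in 2 of the 6 genes. Same-numbered libraries did not deviate together (correlations -0.105, -0.198 and 0.0723), beside 0.278 for ltv1 deletion 1 with wild type 2. Whether same-numbered libraries shared a batch was not tested. With the replicate block 1 of the 6 genes, SOD2, was called lower, with 430 genes in the whole table and 8 list genes. CTT1 then stood at -2.53 (limma adjusted p = 0.0559) and CCS1 at -1.19 (0.0605). Where a call ended the cause was not tested, except that leaving out a library leaves fewer samples. CTA1, at 3 to 10 reads, is limited by depth. CCP1, at 23 to 36 reads, had coefficients of variation of 29.9% and 17.5% in the libraries labelled ltv1 deletion and wild type. Counting alone would give 18.9% and 17.8%, and whether depth limits CCP1 was not tested.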

Other observations

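In many genes of the lists, such as SSA4, HSP26 and GPX2, the library labelled wild type 1 had the highest or the lowest value of the 6. The share of all rows in which it did was not counted. Others of the same lists, such as HEM2 and DLD1, did not set it apart. The genes given next were chosen after their values were seen. HEM13, a heme synthesis gene known to be induced at low oxygen, had 74.6, 60.2 and 45.7 normalized reads in the libraries labelled ltv1 deletion 1, 2 and 3, and 242, 39.6 and 22.4 in those labelled wild type 1, 2 and 3. CYC1, the main cytochrome c gene and an electron donor of Ccp1, had 98.8, 159 and 172 in the libraries labelled ltv1 deletion 1, 2 and 3, and 29.2, 169 and 162 in those labelled wild type 1, 2 and 3. NDE1, an external NADH dehydrogenase gene, had 689, 844 and 987 in the libraries labelled ltv1 deletion 1, 2 and 3, and 83.6, 359 and 364 in those labelled wild type 1, 2 and 3. CRS5, a second metallothionein gene, had 42.0, 92.4 and 85.0 in the libraries labelled ltv1 deletion 1, 2 and 3, and 302, 90.6 and 81.9 in those labelled wild type 1, 2 and 3. Of the 6 genes of the set, CTA1 and CCS1 had their highest value in wild type 1, CTT1, SOD1 and SOD2 in wild type 3, and CCP1 in ltv1 deletion 1.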
